A study of Mus musculus with 24 samples.

Results

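SR proteins and heterogeneous nuclear ribonucleoproteins (hnRNPs) were followed through 24 single mouse erythroid progenitors. Members were the protein-coding genes in the count table whose symbol starts with Srsf followed by a digit or with Hnrnp, a rule that uses names only. It took 31 genes of 21734 protein-coding genes and 49585 rows in all. There were 11 SR protein genes and 20 hnRNP genes.

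SR proteins carry RNA recognition motifs and a tail rich in arginine and serine. They bind exonic enhancers in pre-mRNA and help recruit U1 and U2 snRNPs to the neighbouring splice sites, and several also accompany mRNA out of the nucleus. hnRNPs coat nascent transcripts and often oppose SR proteins at the same exons, and some act later in mRNA stability or translation. Erythroid cells change the splicing of many transcripts as they mature, and in human SRSF2 is a recurrent target of mutation in myelodysplastic syndromes, clonal diseases in which blood cell production, red cells included, is impaired.

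The cells were labelled BFU-E (burst-forming unit-erythroid, named for the large red cell colonies that such a progenitor founds in culture) and came from the fetal liver of C57/Bl6J mice at embryonic day 14.5. Cells carrying lineage antigens, Sca-1, CD16/32 or CD41 had been depleted with magnetic beads, and the rest were sorted on CD117, CD71 and CD24, each cell into its own well of a plate, 8 cells in each of 3 plate columns. Libraries were made with Smart-seq2, in which full-length cDNA of polyadenylated RNA is amplified by PCR with no tag to mark single molecules, and reads carried no strand information. All cells belong to 1 group without treatment or genetic change, no embryo is named for any cell, and the group therefore counts as 1 sample: values are given as mean ± SD over 24 cells, with no test. A p-value from cells would measure only the spread between these libraries.

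Total counts ran from 876983 to 2155010 per cell, and 4767 to 7349 genes had at least 5 counts, the level at which a gene was called detected. Of the defining erythroid progenitor genes, Kit, the CD117 receptor, and Myb were detected in 24 cells and Gata1 and Klf1 in 20. The late erythroid gene Slc4a1 was detected in 0 cells, as were Pf4 of megakaryocytes, Elane of neutrophil precursors, Cd3e of T lymphocytes and Cdh5 of endothelium. The myeloid gene Mpo was detected in 12 cells and reached 7227 CPM (counts scaled to a total of 1000000 per cell) in 1 of them.

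Nearly the whole set of SR protein and hnRNP genes was detected in these progenitors. Of the 31 genes, 20 were detected in every cell, 8 of the SR protein genes and 12 of the hnRNP genes, against 10.2% of the 11050 protein-coding genes detected in at least 1 cell. In at least 12 cells, 29 were detected, against 51.2% of protein-coding genes. A single cell held 28.5 ± 1.35 detected members, with the fewest, 25, in cell 19 and a median of 29. The exceptions at the low end were Srsf12, which had 0 counts in all 24 cells, and Hnrnpul2, detected in 11 cells.

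SR protein genes took 0.413% ± 0.0588 of a cell's counts. The lowest share was 0.277% in cell 12, the median 0.415% and the highest 0.549% in cell 4. hnRNP genes took 0.936% ± 0.102, with the lowest share of 0.759% in cell 6, a median of 0.945% and the highest of 1.17% in cell 7. The hnRNP share was above the SR protein share in each of the 24 cells, at 1.81 to 3.33 times its size. These shares sum 20 hnRNP genes against 11 SR protein genes, with no correction for gene length or number of genes. The coefficients of variation of the sums were 14.2% for SR protein genes and 10.9% for hnRNP genes.

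Promoter sequences are shown for the genes that led each family by level, Srsf7, Hnrnpab and Hnrnpa2b1, and for Srsf12, the member without a count. Each is the 250 bases before the RefSeq start on GRCm38.p6, read 5′ to 3′ on the strand of the gene. Capitals mark every match to 5 motifs, searched on both strands, so that a motif on the other strand shows as its reverse complement. The GC box bound by Sp1 and its relatives was searched as GGGCGG. The core of sites for ETS factors was searched as CCGGAAG. The box bound by NF-Y was searched as CCAAT, and the core of sites for NRF1 as GCATGCG. The TATA type was searched as TATANA. The motifs were chosen after the promoters had been read. The windows are chr17:80207306-80207555 for Srsf7, chr4:33209022-33209271 for Srsf12, chr11:51606882-51607131 for Hnrnpab and chr6:51469895-51470144 for Hnrnpa2b1, with Srsf12 on the plus strand and the others on the minus strand.
Srsf7: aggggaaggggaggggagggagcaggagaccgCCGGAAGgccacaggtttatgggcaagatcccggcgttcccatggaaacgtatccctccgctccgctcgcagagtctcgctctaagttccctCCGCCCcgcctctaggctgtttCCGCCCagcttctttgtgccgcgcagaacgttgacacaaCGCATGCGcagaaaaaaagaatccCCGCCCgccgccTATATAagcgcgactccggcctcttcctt
Srsf12: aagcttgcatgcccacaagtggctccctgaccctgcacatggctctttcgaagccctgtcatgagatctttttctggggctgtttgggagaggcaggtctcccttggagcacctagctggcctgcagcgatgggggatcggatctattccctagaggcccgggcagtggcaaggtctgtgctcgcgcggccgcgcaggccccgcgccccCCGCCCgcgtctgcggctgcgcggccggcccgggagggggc
Hnrnpab: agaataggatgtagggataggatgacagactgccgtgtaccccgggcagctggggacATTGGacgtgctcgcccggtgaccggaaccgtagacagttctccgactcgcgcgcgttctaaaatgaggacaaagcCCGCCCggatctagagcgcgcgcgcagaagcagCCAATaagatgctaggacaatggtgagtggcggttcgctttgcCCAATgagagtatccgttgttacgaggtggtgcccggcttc
Hnrnpa2b1: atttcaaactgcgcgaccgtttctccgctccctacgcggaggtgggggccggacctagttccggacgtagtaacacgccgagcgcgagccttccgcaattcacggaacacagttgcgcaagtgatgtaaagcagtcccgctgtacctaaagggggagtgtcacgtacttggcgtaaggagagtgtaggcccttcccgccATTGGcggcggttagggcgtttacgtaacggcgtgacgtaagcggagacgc

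The Srsf7 window held GGGCGG at 3 places, CCGGAAG once, GCATGCG on both strands in overlapping copies, and a TATANA match that began 29 bases before the start. Srsf12 had 1 GGGCGG match, Hnrnpab 1 together with 3 CCAAT matches, and Hnrnpa2b1 a single CCAAT match. A window was read for 29 members, all but Hnrnpll and Hnrnpul2. GGGCGG occurred in 79.3% of the members' windows, against 62.5% of windows of 6287 protein-coding genes detected in at least 6 cells and 44.5% of all 16522 windows. CCAAT occurred in 51.7% of the members' windows, against 37.7% and 36.1%, and CCGGAAG in 20.7%, against 17.9% and 9.53%. For GCATGCG the shares were 6.90% of the members' windows, against 6.81% and 3.97%, and for TATANA 13.8%, against 10.7% and 20.2%. The members' windows were also richer in CpG, with a median of 23 CpG sites and 65.2% G + C, against 17 sites and 60.4% in detected genes and 10 sites and 56% in all. Whether the share with GGGCGG differs beyond this base composition was not tested. The matches describe letters in these windows and were not tied to the binding of any factor.

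Levels of different genes were compared per length, as counts per kilobase of the exons merged over all annotated transcripts, scaled to 1000000 in each cell (TPM). By this scale 10 of the 30 members detected in at least 6 cells, 3 SR protein and 7 hnRNP genes, stood at or above the 90th percentile, against 10% of all genes by definition. The 3 leading SR protein genes held 64.8% ± 5.58 of their family's summed TPM and the 3 leading hnRNP genes 49.9% ± 4.19 of theirs. These shares set 3 of 11 genes beside 3 of 20 and hold for merged exons only. They were not computed over the longest protein-coding transcript, where Hnrnpa2b1 averaged 1835 TPM against 710 TPM over merged exons. Whether the families differ in this respect was not tested.

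**Figure D1:**
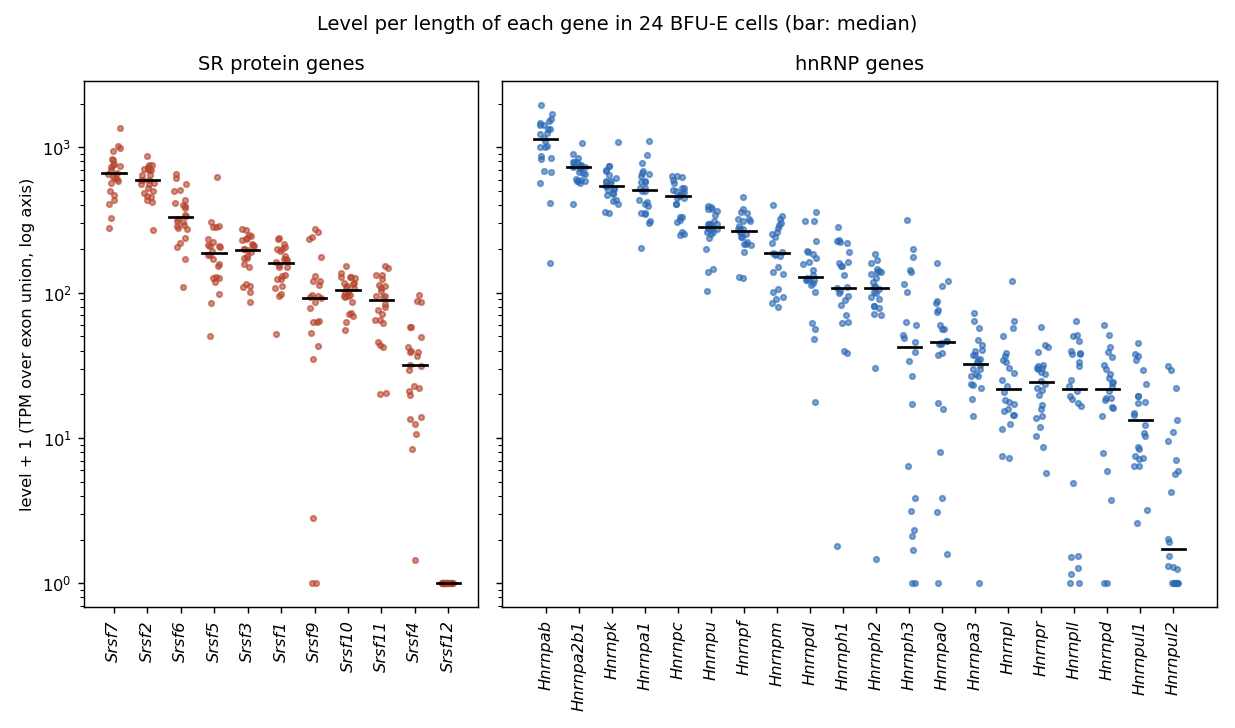
Level per length (TPM + 1, log axis) of the 11 SR protein genes and 20 hnRNP genes in each of 24 BFU-E cells (1 point per cell, bar at the median), ordered by mean level. Srsf7 and Srsf2 lead the SR protein genes at means of 683 and 594 TPM, Hnrnpab leads the hnRNP genes at 1108 TPM, and Srsf12 lies at 0 in every cell.

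Srsf7, which joins an RNA recognition motif to a zinc knuckle and serves as an adaptor for mRNA export, had the highest mean of the SR protein genes, 683 ± 242 TPM. Its lowest value was 280.0 TPM in cell 3, its median 663 TPM and its highest 1364 TPM in cell 4. It led its family in 15 of 24 cells. Srsf2, the enhancer-binding protein also called SC35, had 594 ± 136 TPM, from 271 TPM in cell 12 through a median of 593 TPM to 865 TPM in cell 15, and led in 8 cells. The means of Srsf7 and Srsf2 lay closer together than 1 SD of either gene. Srsf6 had 356 ± 137 TPM, with 109 TPM in cell 3, a median of 330 TPM and 656 TPM in cell 1, where it led the family.

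Over merged exons Srsf5 and Srsf3 followed at less than the level of Srsf6. Over the longest protein-coding transcript the means were 383 TPM for Srsf3, 347 TPM for Srsf5 and 329 TPM for Srsf6, which lay within their SDs of each other, so the order of these 3 genes depended on the length. By merged exons Srsf5, a relative of Srsf6 with a pair of RNA recognition motifs, had 201 ± 112 TPM, from 49.5 TPM in cell 12 through a median of 187 TPM to 623 TPM in cell 19. Srsf3, a small SR protein known for mRNA export and for splicing of its own transcript, had 187 ± 54.2 TPM, from 85.9 TPM in cell 5 through a median of 196 TPM to 273 TPM in cell 1. Srsf1, the prototype of the family, averaged 156 ± 47.2 TPM, and its values of 51.2 to 238 TPM overlapped those of Srsf3 and Srsf5. Srsf9 (105 ± 79.4 TPM), Srsf10 (102 ± 24.8 TPM), which in human cells represses splicing once dephosphorylated after heat shock, and Srsf11 (85.8 ± 37.3 TPM) did not differ by more than their SDs. Over the longest transcript the means were 158 TPM for Srsf11, 129 TPM for Srsf10, 113 TPM for Srsf1 and 101 TPM for Srsf9. The order of these genes thus also depended on the length. Srsf4 had 35.3 ± 25.7 TPM and was detected in 23 cells, with 1 count in cell 8.

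Srsf12, known in human as an antagonist of SR protein function, had no count in any cell. With 0 counts up to 3 remain possible, a limit of 1.39 to 3.42 CPM from cell to cell, so a level under this could be missed in a single cell. The limit is for 1 cell, and by counting alone 0 counts in all 24 cells bound the mean level more tightly. Its related gene Srsf10 had 273 ± 64.6 CPM, with at least 200 counts in every cell.

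Among hnRNP genes, Hnrnpab, a member of the A/B group that binds single-stranded nucleic acids, had the highest mean, 1108 ± 428 TPM. Its values ran from 159 TPM in cell 23 through a median of 1135 TPM to 1959 TPM in cell 7, and it led the family in 19 cells. Hnrnpa2b1, which binds purine-rich RNA and is known for sorting RNAs, followed with 710 ± 133 TPM, from 407 TPM in cell 4 through a median of 728 TPM to 1079 TPM in cell 10. It led in 4 cells, and Hnrnpk led in cell 23. This order depended on the length used. Hnrnpa2b1 has 6584 bases of merged exons but 1728 bases in its longest protein-coding transcript. Over that transcript it averaged 1835 ± 343 TPM, Hnrnpab 881 ± 337 TPM and Hnrnpk 833 ± 229 TPM, and Hnrnpa2b1 led in 23 cells and Hnrnpab in 0. The lead of Srsf7 did not turn on this choice (14 cells over the longest transcript).

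Hnrnpk, which binds C-rich RNA and silences translation of a lipoxygenase mRNA in rabbit reticulocytes, had 565 ± 157 TPM, from 351 TPM in cell 19 through a median of 540 TPM to 1095 TPM in cell 4. Hnrnpa1, a splicing repressor at many exons, had 530 ± 204 TPM, from 202 TPM in cell 19 through a median of 512 TPM to 1112 TPM in cell 4. Hnrnpc, which packages U-rich stretches of nascent RNA, had 448 ± 122 TPM, from 248 TPM in cell 19 through a median of 463 TPM to 637 TPM in cell 2. The 3 genes overlapped across most of their ranges, and all 3 had their lowest value in cell 19, the cell with the second-fewest detected genes (4800).

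Of the remaining hnRNP genes, Hnrnpu, a nuclear scaffold protein, averaged 280 ± 77.0 TPM and Hnrnpf, which binds G tracts, 269 ± 75.3 TPM. Hnrnpm, which binds GU-rich RNA, averaged 200 ± 90.6 TPM. Hnrnpdl had 152 ± 83.7 TPM, Hnrnph1 128 ± 72.4 TPM and Hnrnph2 107 ± 42.1 TPM. A lower group of 8 genes followed, from Hnrnph3 at 65.6 ± 79.7 TPM and Hnrnpa0 at 50.6 ± 40.7 TPM, through Hnrnpa3 at 33.1 ± 15.6 TPM, Hnrnpl at 28.7 ± 24.5 TPM, Hnrnpr at 24.1 ± 12.5 TPM, Hnrnpll at 23.3 ± 18.7 TPM and Hnrnpd at 22.3 ± 15.1 TPM, to Hnrnpul1 at 15.8 ± 12 TPM. Hnrnpul2 was lowest at 5.52 ± 8.93 TPM, with a median of 0.726 TPM and 30.1 TPM in cell 16. It had at least 1 count in 16 cells and 0 in all others. Neighbours in this lower group did not differ by more than the larger of their SDs. Their order also changed with the length, and Hnrnpll had 59.0 TPM over its longest transcript.

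Some of these levels carry a limit from the annotation. Because reads had no strand, those from exons shared with a gene on the other strand cannot be told apart. Such overlap covered 29.1% of the exon bases of Hnrnpab (Phykpl), 25.3% of Srsf2 (Mettl23 and Mfsd11), 43.0% of Srsf4 (a transcript with 0 counts) and 26.5% of Hnrnpf (predicted genes at 0.517 and 0.285 CPM), and 14.7% of Hnrnpm was shared with March2 on the same strand. The overlapping genes Phykpl, Mettl23 and Mfsd11 had means of 45.2, 92.4 and 10.7 CPM, against 1179 CPM for Hnrnpab and 671 CPM for Srsf2. The counting options are not known, so reads over shared exons may have been dropped from both genes. In that case the levels per length would be too low. The neighbours' means therefore do not bound the effect. Hnrnph1 and Hnrnph2 are close copies, and hnRNP and SR protein genes have processed pseudogenes, so reads shared between copies could be split or lost in counting. The rows Hnrnpa1l2-ps and Hnrnpa1l2-ps2 held 2 and 14 counts over all cells.

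Some related genes differed in level in every cell. Srsf7 was above Srsf3 in all 24 cells, and Srsf3 held 22.6% ± 8.27 of the pair's summed TPM (over the longest transcript Srsf3 held 36.7% and was the higher in 2 cells). Srsf6 was above Srsf4 in all 24 cells, Srsf4 holding 9.85% ± 7.44. Hnrnpdl was above Hnrnpd, which promotes decay of AU-rich mRNAs, in all 24 cells, Hnrnpd holding 14.4% ± 11.8. Hnrnpa2b1 held 95.5% ± 2.17 of the sum with Hnrnpa3.

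Other pairs changed sides between cells. Srsf1 held 63.6% ± 19.96 of its sum with Srsf9 and was the higher in 17 cells. Hnrnph1 held 52.9% ± 18.7 of its sum with Hnrnph2, and Hnrnpl, which binds CA repeats, held 59.2% ± 29.3 of its sum with Hnrnpll, a regulator of CD45 splicing in T cells. Each of these pairs had cells near an extreme, in which 1 of its genes was under the detection level. Hnrnpll was detected in 18 cells and Srsf9 in 21. Hnrnpll had 0 to 3 counts in cells 1, 8, 9, 10, 12 and 23, and Hnrnpl was the higher in each of them. Hnrnph1 had 3 counts (1.73 CPM) in cell 4, against a median of 239 CPM, and Hnrnph2 had 1 count (0.812 CPM) in cell 24, against a median of 175 CPM.

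Hnrnpul1 held 79.3% ± 26.8 of its sum with Hnrnpul2 and was the higher in 20 cells. Hnrnpa1 held 41.8% ± 10.5 of its sum with Hnrnpa2b1, and Hnrnpr 45.8% ± 19.8 of its sum with Syncrip, its close relative. Over the longest transcript the share of Hnrnpa1 was 24.3%. The number of cells in which the first gene was the higher changed with the length for most of these pairs. Hnrnph1 was above Hnrnph2 in 15 cells over merged exons and in 22 over the longest transcript. Hnrnpl was above Hnrnpll in 12 cells over merged exons and in 8 over the longest transcript. Srsf5 was above Srsf6 in 3 cells over merged exons and in 13 over the longest transcript, and Hnrnph1 above Hnrnpf in 1 and 11 cells. For Srsf1 with Srsf9, Hnrnpul1 with Hnrnpul2, Hnrnpr with Syncrip and Hnrnpa1 with Hnrnpa2b1 the counts were 15, 22, 8 and 1 over the longest transcript, against 17, 20, 10 and 3 over merged exons.

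**Figure D2:**
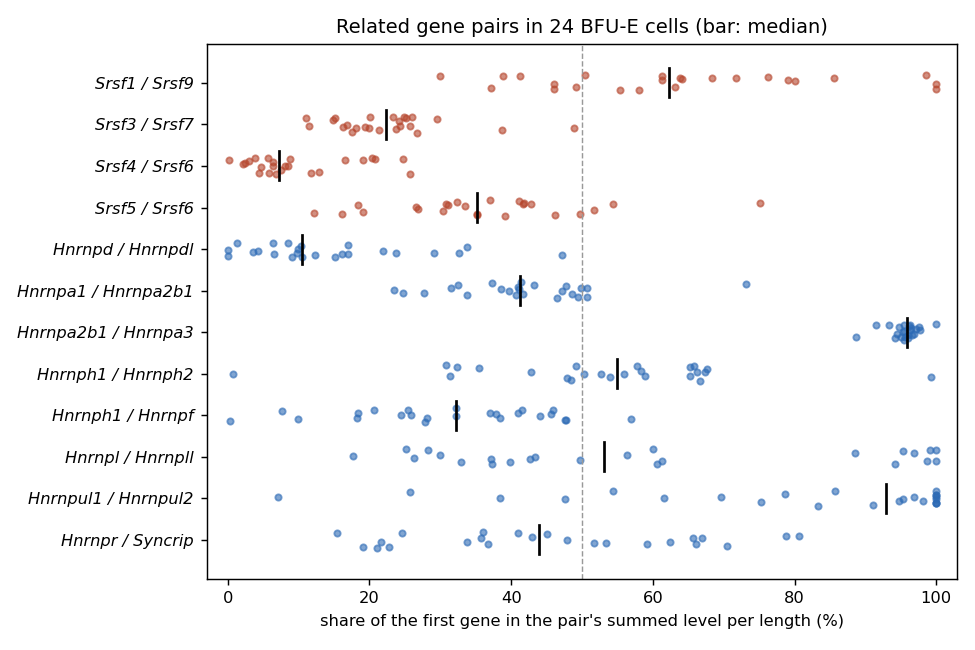
Share of the first-named gene in the summed TPM of 12 related pairs, 1 point per cell (24 cells), with the median as a bar and a dashed line at 50%. Srsf3, Srsf4 and Hnrnpd lie under the line in every cell, Hnrnpa2b1 lies above Hnrnpa3 in every cell, and Hnrnpl against Hnrnpll spans 17.7% to 100%.

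The spread between cells of single members was far above counting error. The median coefficient of variation of CPM was 36.1% over SR protein genes and 49.4% over the hnRNP genes. Over all 8266 genes detected in at least 6 cells it was 104%, and over the 1231 genes detected in every cell, which are nearer to the members in level, 43.2%. Counting alone would give medians of 4.51% for the SR protein and 5.26% for the hnRNP genes, which does not include the copying and amplification of RNA. The lowest coefficient was that of Hnrnpa2b1, 19% at 1792 CPM (983.9 CPM in cell 4, a median of 1813 CPM and 2689 CPM in cell 10). Srsf2 followed at 22.5% and Srsf10 at 23.6%. The highest coefficient was that of Hnrnpul2, at 162%.

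Against a trend of variance on mean over all genes, on the log2(CPM + 1) scale, 17 of 30 members lay under the trend, against 47.2% of all genes. Of the 1231 genes detected in every cell, 909 lay under it, a larger share than of the members. The members under it were 8 of 10 SR protein genes and 9 of 20 hnRNP genes. Srsf10 lay farthest under it, with an SD of 0.37 against a trend of 0.85, and Hnrnpab farthest above, with an SD of 0.77 against 0.37. Hnrnpa2b1, lowest in coefficient of variation, lay just above the trend, with an SD of 0.29 against 0.27. Hnrnpul2, highest in that coefficient, lay under the trend, with an SD of 2.32 against 2.70. The lowest Hnrnpab value was 168 CPM in cell 23, the cell of smallest total, against a median of 1202 CPM.

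**Figure D3:**
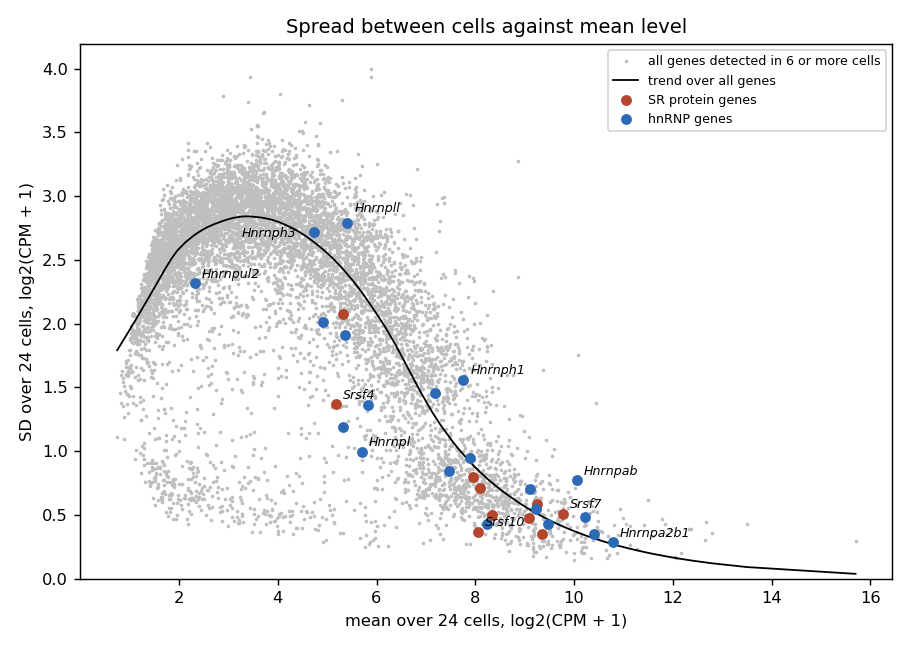
SD against mean of log2(CPM + 1) over 24 cells for 8266 genes (grey), the 10 SR protein genes (red) and 20 hnRNP genes (blue) detected in at least 6 cells, with the trend over all genes as a line. Srsf10, Srsf4 and Hnrnpl lie well under the line, and Hnrnpab and Hnrnph1 lie above it, Hnrnpab with an SD of 0.77 against 0.37 on the trend.

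Co-variation of the members from cell to cell was close to 0 on average, within families and across them. Spearman's rho of CPM over the 24 cells averaged 0.021 over 45 pairs of SR protein genes, 0.021 over 190 pairs of hnRNP genes and 0.0094 over 200 pairs across the families, against 0.0076 over 34159245 pairs of all genes. Leaving out single cells moved these means between -0.0024 (without cell 12) and 0.032 (without cell 24) for SR protein genes and between 0.0011 (without cell 7) and 0.027 (without cell 22) for hnRNP genes. Of 435 member pairs 11 (2.53%) reached a rho of 0.4, against 3.34% of all gene pairs. Another 11 pairs (2.53%) were at -0.4 or under, against 2.8%. The points of each correlation are cells of 1 plate that share library chemistry, and CPM values of a cell share its total.

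Within this low background the highest pair was Srsf1 with Srsf2, at 0.54, which stayed between 0.49 and 0.62 when single cells were left out. Srsf1 with Hnrnpa2b1 had 0.53, Hnrnpab with Hnrnpc and Srsf7 with Hnrnpk 0.51 each, and Hnrnpa1 with Hnrnpc 0.49. Within plate columns 1 to 3, Srsf1 with Srsf2 had 0.74, 0.31 and 0.40 and Srsf1 with Hnrnpa2b1 0.43, 0.50 and 0.90. Hnrnpab with Hnrnpc had 0.64, 0.79 and 0.40, Srsf7 with Hnrnpk 0.60, 0.76 and 0.36, and Hnrnpa1 with Hnrnpc 0.81, 0.12 and 0.29. Srsf1 and Hnrnph3 had -0.46, with -0.24, -0.48 and -0.048 in plate columns 1 to 3, and Srsf7 and Hnrnpm -0.44, with -0.81, -0.024 and -0.36. The Srsf7 and Hnrnpm value was -0.39 at its weakest and crossed -0.4 without cell 14 or without cell 17, and it was -0.31 with total counts and genes detected held fixed.

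The lowest pair of all was Hnrnpd with Hnrnpm, at -0.77 over 24 cells (Pearson's r of -0.68 on the log2 scale). Of all gene pairs 597, or 0.00175%, were as low or lower, and the pair was picked here as the lowest of 435. Hnrnpd had 0 counts in cells 2 and 19, where Hnrnpm stood at 933 and 1194 CPM. The highest Hnrnpd values were 161 CPM in cell 14, 142 CPM in cell 15 and 122 CPM in cell 12, where Hnrnpm stood at 234, 276 and 266 CPM. Within plate columns 1, 2 and 3 rho was -0.67, -0.90 and -0.67, and it stayed between -0.83 and -0.74 when any 1 cell was left out. It was -0.72 with DESeq2 size factors, -0.74 with TMM factors and -0.73 with total counts and genes detected held fixed.

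**Figure D4:**
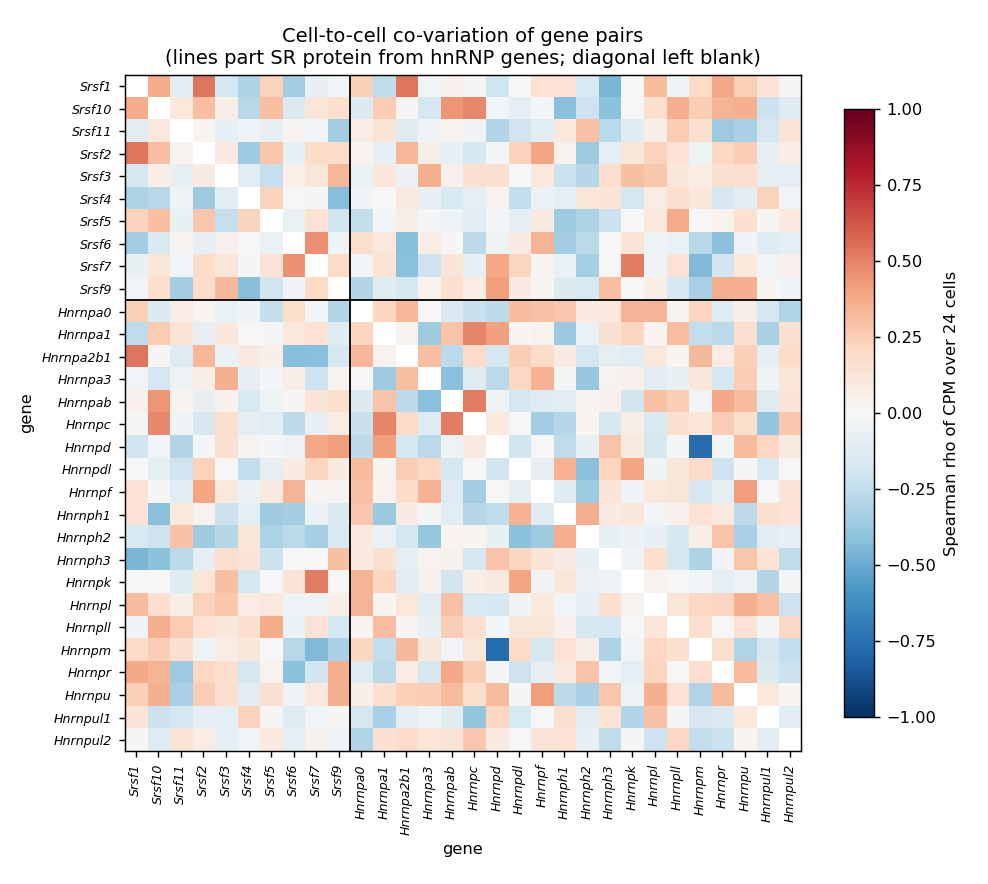
Spearman's rho of CPM over 24 cells for each pair of the 30 SR protein and hnRNP genes detected in at least 6 cells, red for positive and blue for negative, with black lines between the families. No block of a family stands out, with mean rho of 0.021 within each family, and the darkest blue cell is Hnrnpd with Hnrnpm at -0.77.

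The summed levels were only loosely related to depth. For SR protein genes rho with total counts was 0.25 (r of 0.19, and 0.17 without the 2 cells farthest from the median total), but it was 0.50, -0.62 and 0.74 within plate columns 1, 2 and 3. For hnRNP genes it was 0.17 (r of 0.15, and -0.034 without those 2 cells), with 0.095, 0.31 and -0.071 within columns. With the number of detected genes, rho was 0.037 for SR protein genes and 0.018 for hnRNP genes. The sums of the families had a rho of 0.037 with each other (r of 0.20).

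**Figure D5:**
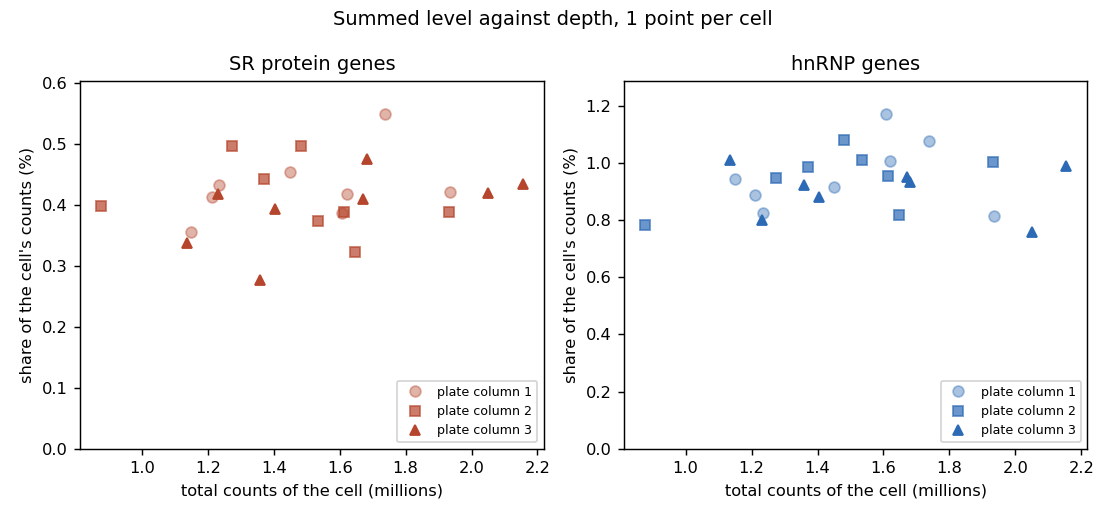
Share of a cell's counts (%) in SR protein genes (left) and hnRNP genes (right) against total counts of the cell, 1 point per cell, with symbols for the 3 plate columns. SR protein shares lie between 0.277% and 0.549% and hnRNP shares between 0.759% and 1.17% over the whole range of totals, with rho of 0.25 and 0.17.

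The number of members seen was more closely related to depth. The number of members detected had a rho of 0.59 with total counts, and of 0.44 when every cell was thinned to 876983 counts, the smallest total, which left 28.3 ± 1.26 members detected per cell. Without the 2 cells farthest from the median total these values were 0.48 and 0.34. The number of all genes detected also rose with total counts, at a rho of 0.43. Of single members, 3 of 30 had a rho of at least 0.4 between CPM and total counts, against 6.52% of all genes, and 2 of 30 had -0.4 or less, against 3.17%. Those that were higher in deeper cells were Hnrnpul2 (0.48), Hnrnpab (0.45) and Srsf7 (0.41), and those that were lower were Hnrnpa0 (-0.56) and Hnrnpm (-0.50).

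Hnrnpa0, which stabilises AU-rich mRNAs and has no intron, had 51.7 ± 41.1 CPM, with 0 in cell 6, a median of 46.1 CPM and 158 CPM in cell 14. Its rho was -0.45, -0.79 and -0.67 within plate columns 1 to 3 and stayed between -0.62 and -0.51 when single cells were left out. Hnrnpm had 609 ± 277 CPM, from 234 CPM in cell 14 through a median of 566 CPM to 1194 CPM in cell 19, and its rho was -0.86, -0.12 and -0.45 within columns. Hnrnpul2 had 0.076, 0.50 and 0.61 within columns, with counts of 0 in its lowest cells.

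The calls for Srsf7 and Hnrnpab lay at the threshold. Srsf7 had 0.83, -0.48 and 0.76 within columns 1 to 3, and its value was under 0.4 without any 1 of cells 1, 3, 4, 6, 9, 11, 12, 13, 15, 18, 19, 21 and 22, with a minimum of 0.34. Hnrnpab had 0.43, 0.79 and 0.52 within columns and was under 0.4 without any 1 of cells 3, 22, 23 and 24, with a minimum of 0.37. With the number of detected genes, Hnrnpul2 had a rho of 0.42, the 1 member of 30 at 0.4 or more, against 7.49% of all genes. None was at -0.4 or less, against 1.91%.

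Other parts of the splicing machinery were also widely detected, beside 51.2% of all protein-coding genes. In at least 12 cells, 10 of 10 Sm and U1 snRNP genes were detected, 14 of 14 genes of U2 snRNP and 3′ splice site recognition, 12 of 12 of the tri-snRNP and activation, and 13 of 13 SR-related genes. The highest over merged exons were the core Sm genes Snrpb (1129 TPM) and Snrpe (815 TPM), the U2 genes Sf3a3 (282 TPM) and Snrpa1 (227 TPM), the spliceosome genes Snrnp40 (209 TPM) and Plrg1 (157 TPM), and the SR-related genes Rbm39 (182 TPM) and Srrm2 (88.1 TPM), which builds nuclear speckles. Of the genes that phosphorylate, dephosphorylate or import SR proteins, 11 of 13 passed this level. The highest were the phosphatase gene Ppp1ca (939 TPM) and the kinase gene Srpk1 (64.6 TPM). Over the longest transcript the kinase gene Clk1 was above Srpk1, at 187 TPM against 116 TPM. On that scale Sf3b6 (369 TPM) also passed Sf3a3 (292 TPM), Eftud2 (235 TPM) passed Plrg1 (162 TPM), and Tra2b (145 TPM) and Srrm1 (98.3 TPM) passed Srrm2 (86.5 TPM). Clk1, Sf3b6, Eftud2, Tra2b and Srrm1 were named after their values were seen. For arginine methylation and import of hnRNPs it was 6 of 6, led by the methyltransferase gene Prmt5 (166 TPM) and its partner Wdr77 (88.8 TPM). For mRNA export it was 8 of 8, led by Ddx39b (406 TPM) and Nxt1 (301 TPM).

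hnRNP proteins whose genes carry other names were likewise common, 12 of 13 in at least 12 cells, led by Pcbp1 (951 TPM), which binds C-rich RNA, and the splicing repressor gene Ptbp1 (216 TPM). Of a mixed list of splicing regulators, some of them known for tissue-specific splicing, 6 of 12 were detected in at least 12 cells, which is near the 51.2% of all protein-coding genes. Rbm38, known for splicing in maturing erythroid cells, led at 193 TPM and Elavl1 followed at 77.7 TPM, while Rbfox2, Esrp1 and Srrm4 were detected in 0 cells.

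Of 45 relations over cells computed between the sums, depth and the gene lists, the largest positive ones for the hnRNP sum were with the U2 list, at a rho of 0.54 (r of 0.54, and 0.44 without the 2 cells farthest from that list's median), and with arginine methylation and import, at 0.51 (r of 0.42, and 0.34). Within plate columns 1 to 3 these were 0.33, 0.57 and 0.48, and 0.64, 0.43 and 0.57. The sum had a rho of 0.45 with erythroid progenitor markers (r of 0.43, and 0.37 without 2 cells), with 0.79, 0.31 and 0.19 within columns, and that list had a rho of 0.53 with total counts. Myeloid markers had a rho of -0.51 with the hnRNP sum but an r of -0.22, and -0.76, -0.76 and -0.12 within columns. That list took 0 to 0.962% of counts, with 2 of its 6 genes detected in at least 12 cells and Elane in 0, and it was also lower in deeper cells (rho of -0.68 with total counts). Stromal and endothelial markers, 4 of 6 detected in 0 cells and at most 0.0457% of counts, had a rho of -0.40 with the hnRNP sum (r of -0.35, and -0.21 without 2 cells) and of -0.56 with total counts. The part of these markers or of depth in the hnRNP level was not tested. For the SR protein sum the largest relation to a splicing list was 0.31, with SR-related genes (r of 0.21).

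Among 5432 protein-coding genes detected in at least 12 cells and outside the lists, those whose CPM followed the SR protein sum most closely over 24 cells were Ntmt1 (rho of 0.74), Ap1g1 (0.70), Rwdd4a (0.64), Gar1 (0.64) and Zfp131 (0.63). For the hnRNP sum they were Aqp1 (0.78), Eif3b (0.76), Timm8b (0.73), Necap2 (0.72) and Eif4g2 (0.71). They are the highest of 5432 values for each sum and are given as a description.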

How the data were processed

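Deposited raw counts per gene of 24 cells were used as the authors deposited them. The submitters' processing notes name STAR 2.4, featureCounts and GRCm38. The sources used here give no annotation release, counting options or cell filters. Of 49585 Ensembl identifiers 49326 matched GENCODE M21, which gave symbols, exons and lengths, and the 259 others held 0.0295% of counts.

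CPM used the total over all rows. TPM was computed here from exon unions. A gene was detected at 5 counts, and analyses across genes took those detected in at least 6 cells. The variance trend was a lowess of log2 variance on mean log2(CPM + 1), with a span of 0.3. A rho of 0.4 in size was called. A count of 0 allows 3 counts, which covers counting error alone, since reads copied by PCR are not separate molecules. Marker and splicing lists, 18 in all, and the members were chosen with earlier results of these data known. The naming rule took all members, and in full the 5 highest of each family per length, members detected in under 12 cells, those called with total counts and those in related pairs. It also took the 5 highest and 3 lowest pairs, the 2 highest genes of each splicing list with those in 0 cells, and the 5 genes closest to each sum. Ahsp was not matched. The correlation steps were tested on simulated data.

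Python 3.11.15, pandas 2.3.3, scipy 1.17.1 and statsmodels 0.14.6 were used, with edgeR 4.0.16 and DESeq2 1.42.0 for alternative scaling only. Other alternatives were thinning, other detection levels, Pearson's r, partial correlation, transcript length, plate columns and leaving out each cell. Protein sequences were not used here.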

Additional observations from a re-analysis of the deposited data

How the results depend on the processing

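The design has 1 group of cells, so nothing here generalises beyond 24 libraries, and depth limits the low genes. No paired analysis was possible because there is 1 group. The summed levels, the lead of Srsf7 and the 20 members detected in every cell (19 to 23 at other detection levels or after thinning) changed little. Under DESeq2 size factors the mean rho within hnRNP genes was -0.0031 and across families -0.0044, rho with total counts was 0.032 for the SR protein sum and -0.061 for the hnRNP sum, and with genes detected -0.19 and -0.25. Pearson's r gave a mean of 0.027 within hnRNP genes and 0.17 between the sums, and partial correlation 0.031 within hnRNP genes. In plate columns 1, 2 and 3 the mean rho across families was -0.021, 0.063 and -0.026. Within hnRNP genes it was 0.059 and -0.0020 in columns 1 and 2, and within SR protein genes 0.057 in column 2. For the SR protein sum, rho with total counts was 0.50, -0.62 and 0.74 and with genes detected -0.21, -0.12 and 0.31, and with the hnRNP sum -0.17, 0.24 and -0.095. For the hnRNP sum in column 3 rho was -0.071 with total counts and -0.60 with genes detected. Hnrnpab led in 0 cells over the longest transcript and in 2 without length. For single genes and pairs, apart from leaving out cells, 59 settings kept the call, 7 lost it and 1 turned it round, Srsf7 with total counts in column 2 at -0.48. The cause was not tested for any of these.

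Leaving out each cell gave 0.407 to 0.419% for the SR protein sum and 0.926 to 0.944% for the hnRNP sum. It gave mean rho of -0.0024 to 0.032 within SR protein genes, 0.0011 to 0.027 within hnRNP genes and -0.00032 to 0.017 across them. The rank correlation with total counts was 0.18 to 0.32 for the SR protein sum and 0.075 to 0.31 for the hnRNP sum, with genes detected -0.049 to 0.13 and -0.097 to 0.12, and between the sums -0.075 to 0.13.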

Other observations

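Cells resembled each other more over the SR protein and hnRNP genes than over all genes. Between pairs of cells, rho across the 30 members ran from 0.684 to 0.958 with a median of 0.876, against 0.353 to 0.683 with a median of 0.529 across 8266 genes. The members are mostly abundant genes and all genes include many near the detection level, so the values describe lists of different level, and genes within a cell are not independent.

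Cell 19 stood low for several members at once. It had the fewest members detected (25) and the lowest values of Hnrnpa1, Hnrnpc, Hnrnpk and Hnrnpdl in CPM, together with 0 counts of Hnrnpd, Hnrnpa3 and Srsf9, while its Srsf5 (932 CPM), Hnrnpm (1194 CPM) and Hnrnpr (478 CPM) were the highest of the 24 cells. Its total was 1234038 counts, and 4800 genes were detected in it.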
